A study of Mus musculus with 5 samples.

Results

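Proteoglycans are core proteins that carry long sulphated sugar chains, and hyaluronan is a free sugar chain made at the cell surface without a core protein. Together they fill the matrix between heart cells, hold water and growth factors, and build the jelly from which valves form. Described here are 36 genes of this matrix in the atria of newborn mice, taken as the rows of the deposited table whose gene symbol equals a name on a fixed list: 11 small leucine-rich proteoglycans, 4 hyaluronan-binding proteoglycans (lecticans), 4 link proteins, 3 hyaluronan synthases, 1 hyaluronan receptor, 2 hyaluronidases, 4 syndecans, 5 glypicans and 2 basement membrane proteoglycans. All 36 were found among 40624 genes, each once. The list was drawn up with earlier results of these data known.

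The study compared atria that lack the cardiac homeodomain factor Nkx2-5 with control atria at postnatal day 1. Control libraries (replicates 2, 4 and 6) came from mice of genotype SLN-Cre; Nkx2-5-flox/+, and mutant libraries (replicates 5 and 7) from SLN-Cre; Nkx2-5-flox/flox mice, all of strain C57BL/6. Both groups thus carried the Cre recombinase, driven by the gene of sarcolipin, a calcium pump inhibitor of atrial muscle, and they differed in the second floxed allele. Most genes described below are best known from fibroblasts, endothelium or the outer lining of the heart, and not from muscle. Because whole tissue was sequenced, fewer cells of a type and less RNA per cell cannot be told apart.

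Gene counts per library ran from 58501214 to 60899334 in controls and were 78841494 and 69648013 in mutants 5 and 7. Levels are given as CPM (gene counts scaled to library size by TMM), in the order control 2, 4, 6 and mutant 5, 7. Nkx2-5 had 76.8, 72.1 and 71.3 CPM in the control libraries, against 5.79 and 5.21 CPM in the mutant ones, and fell by 3.74 ± 0.09 (SE, log2; adjusted p = 7.0e-07, edgeR). The 6 markers of atrial muscle summed to between 43621 and 48520 CPM in every library, while 3 lung markers stayed at or under 1.14 CPM and 3 thymocyte markers at or under 0.747 CPM in sum. Summed levels of 4 further lists did not overlap between the groups. They were 146.5, 83.8 and 242 CPM in controls against 41.0 and 23.8 CPM in mutants for 3 ventricular muscle markers, 18.6 to 24.3 CPM against 12.5 and 17.1 CPM for 5 cartilage markers. For 5 erythroid markers they were 676 to 845 CPM against 1004 and 1029 CPM, and for 6 macrophage markers 177 to 196 CPM against 220 and 199 CPM. Of these markers Hba-a1 and Fcgr1 passed, both higher, and the part of these cells in the results was not tested. Whether the libraries came from separate animals is not stated, so the spread behind each p-value is that between these samples and may be technical. Reads that the counting tool set aside as ambiguous made up 2.87 to 3.18% of all counts in controls and 2.45 and 2.31% in mutants, a difference whose part in the results was not tested.

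In mutant atria 5 of the matrix genes fell and 4 rose. The falls were those of Podn, Lum, Has1, Dcn and Gpc3, and the rises those of Hapln4, Ncan, Sdc3 and Gpc4. Of the 36 genes, 34 had enough counts to be tested, and Kera and Hapln2 did not. The 9 called genes were 26.5% of the 34, where 6.58% of all 17835 tested genes passed the same test (edgeR's quasi-likelihood test, Benjamini-Hochberg adjusted p under 0.05). In each direction, 3.02% of all tested genes were called higher and 3.57% lower. The median log2 fold change was -0.04 over the 34 genes and 0.01 over all tested genes. The 2 groups did not overlap for 16 of the 34 genes, 8 above and 8 below, against 37.9% of all tested genes. Dcn, Lum, Podn, Gpc3, Sdc3 and Hapln4 passed in all 11 alternative analyses, and the calls of Has1, Gpc4 and Ncan were lost when single libraries were left out, as given below.

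**Figure D1:**
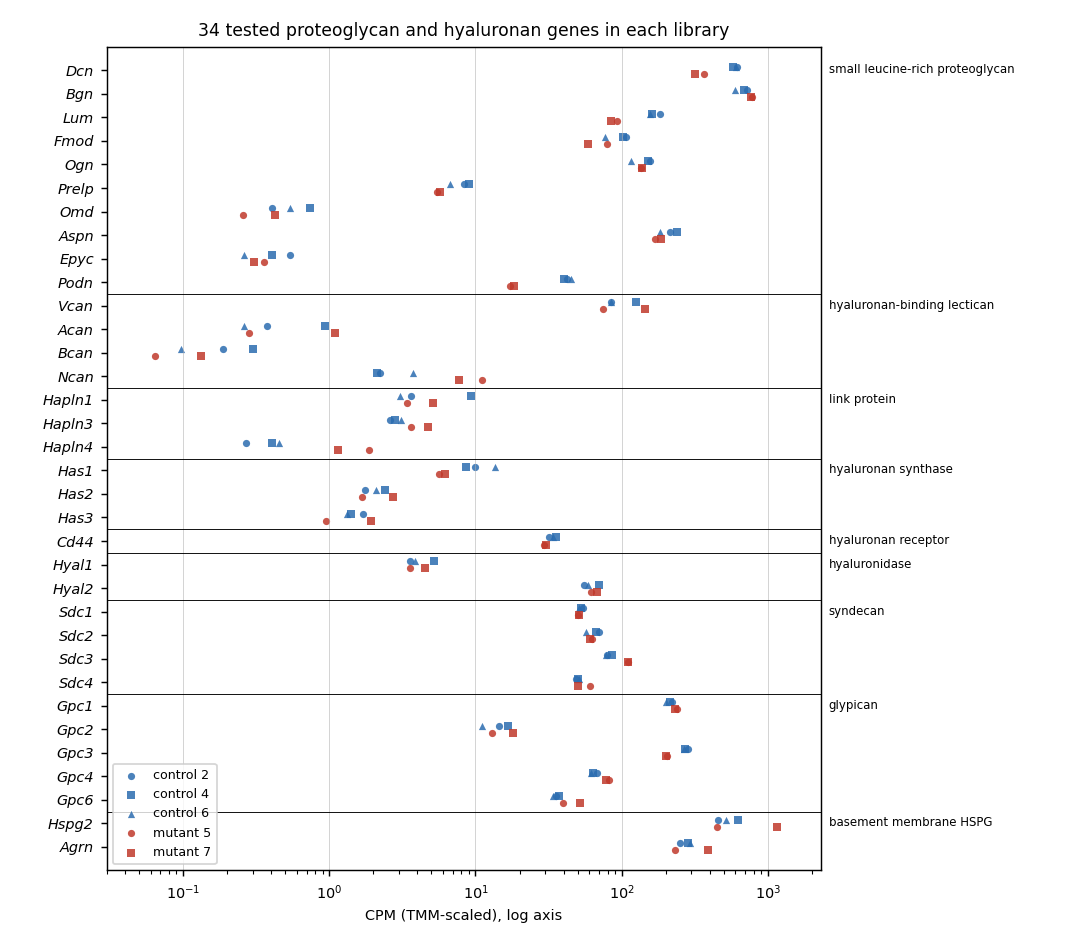
Level of the 34 tested genes in each library, in CPM (TMM-scaled) on a log axis, grouped by role (HSPG, heparan sulphate proteoglycan); blue points are controls and red points mutants. Podn, Lum and Dcn have both mutant points well to the left of all control points, Ncan and Hapln4 well to the right, and Hspg2 has mutant 7 alone at 1149 CPM.

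**Figure D2:**
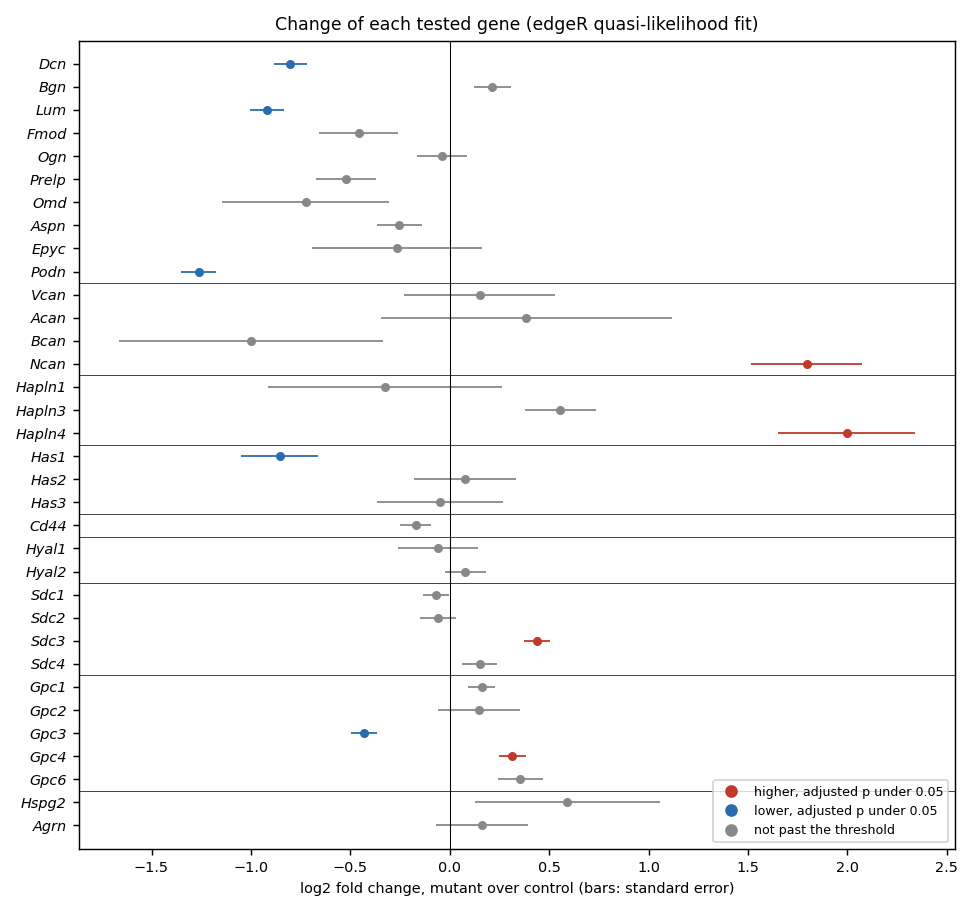
Log2 fold change of mutant over control for each tested gene with its standard error; coloured points passed adjusted p under 0.05. Values run from -1.26 for Podn to 2.00 for Hapln4, and 9 of the 10 small leucine-rich proteoglycans at the top lie below 0.

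The small leucine-rich proteoglycans are secreted proteins with a curved leucine-rich repeat domain, most of which bind collagen fibrils. Of 11 genes, 10 were tested, 3 fell and 7 did not pass (edgeR). All but Bgn had a negative log2 fold change, as did 8677 of all 17835 tested genes, and the median was -0.49.

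Podn encodes podocan, a leucine-rich proteoglycan of the vessel wall and connective tissue (ENSMUSG00000028600; coding span on chromosome 4, 107687420 to 107699895, mm9). It had 42.4, 40.1 and 45.2 CPM in the control libraries, against 17.1 and 18.4 CPM in the mutant ones. The lowest control lay above 40 CPM and the highest mutant below 19 CPM, so the groups were far apart. Podn fell by 1.26 ± 0.09 (SE, log2), to 0.417 of the control level, with an adjusted p of 2.7e-04 (edgeR). Of all 36 genes it had the largest fall that passed.

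Lum encodes lumican, a keratan sulphate proteoglycan that orders collagen fibrils (ENSMUSG00000036446; chromosome 10, 97030879 to 97034685). It had 183, 162 and 155 CPM in the control libraries, against 92.5 and 84.1 CPM in the mutant ones. All control values lay above all mutant values. The change was -0.92 ± 0.09 (SE, log2), with an adjusted p of 9.6e-04 (edgeR).

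Dcn encodes decorin, which coats collagen fibrils and binds growth factors of the TGF-beta family (ENSMUSG00000019929; chromosome 10, 96945997 to 96980289). It had 612, 579 and 603 CPM in the control libraries, against 367 and 320 CPM in the mutant ones, without overlap. Dcn fell by 0.80 ± 0.08 (SE, log2; adjusted p = 0.0014, edgeR). Dcn and Lum lie next to each other, with a gap of 50.6 kb and no protein-coding gene between their coding spans in the deposited table. The ratio of Lum to Dcn CPM was 0.300, 0.280 and 0.258 in the control libraries, against 0.252 and 0.263 in the mutant ones. These ranges overlap, and an exact two-sided permutation test of the ratio gave p = 0.3 (where 0.1 is the smallest p that 3 against 2 libraries allow). The same gene cluster holds Kera and Epyc, whose proteins are known from cornea and cartilage. Kera was near 0, with 0 to 3 counts per library, and Epyc had 16 to 32 counts per library and a log2 fold change of -0.27 ± 0.43 (SE).

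Bgn encodes biglycan, the close relative of decorin with a further sugar chain, and its mean level was the highest of this group, although Dcn was above it in control 6. It had 720, 691 and 592 CPM in the control libraries, against 780 and 768 CPM in the mutant ones. Both mutants lay above all controls, but the log2 fold change of 0.21 ± 0.09 (SE) did not pass (adjusted p = 0.24, edgeR). Set against Dcn within each library, which removes the scaling between libraries, the ratio of Bgn to Dcn was 1.18, 1.19 and 0.982 in the control libraries, against 2.13 and 2.40 in the mutant ones. The mean ratio was therefore 2.03 times higher in mutants, with p = 0.1 by an exact two-sided permutation test, the smallest it can give. This pair was chosen after its values were seen. Mutant values of Bgn lay wholly above and those of Dcn wholly below the controls, so their ratio had to separate the groups. The test therefore adds nothing to the values of the 2 genes.

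The other genes of the group did not pass. Prelp, whose protein anchors basement membrane to collagen, had 8.40, 9.04 and 6.71 CPM in the control libraries, against 5.46 and 5.76 CPM in the mutant ones. Its groups did not overlap, and its log2 fold change of -0.52 ± 0.15 (SE) missed the threshold (adjusted p = 0.084 with edgeR, and 0.031 with DESeq2). Fmod, the gene of fibromodulin, ranged from 76.7 to 106 CPM in the control libraries, against 79.8 and 58.6 CPM in the mutant ones. Aspn (asporin), Ogn (osteoglycin) and Omd (osteomodulin) lie side by side on chromosome 13, in a cluster like that of Dcn and Lum. Their log2 fold changes were -0.25 ± 0.12, -0.04 ± 0.13 and -0.72 ± 0.42 (SE), and the groups overlapped for each of the 3. Aspn and Ogn were abundant, at a mean of 212 and 141 CPM in controls, while Omd stood at 0.561 CPM.

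Markers of cell types are given here beside these falls. Of 8 markers of the epicardium, the outer lining of the heart, 7 fell and Wt1 did not pass. Their summed level was 1171 to 1345 CPM in controls and 790 to 801 CPM in mutants, and their median log2 fold change was -0.61. None of the 8 was at 0 in all libraries. Krt19, a keratin gene of the lining, fell by 0.79 ± 0.07 (SE), and the mesothelial gene Upk3b fell by 0.79 ± 0.10. Of 9 fibroblast markers, 1 fell (Col3a1, a fibrillar collagen gene, by 0.42 ± 0.09) and 8 did not pass. All 9 had negative log2 fold changes, from -0.58 for Dpt to -0.04 for Ddr2, with a median of -0.25. Their summed level was 10586 to 12081 CPM in controls and 8604 and 8900 CPM in mutants. Of these 9 markers, Tcf21 and Pdgfra had log2 fold changes of -0.15 ± 0.07 and -0.25 ± 0.13 (SE). The 5 markers of mural cells, the muscle cells and pericytes of vessels, had a summed level of 478 to 587 CPM in controls and of 1885 and 1511 CPM in mutants. Acta2 was the 1 of them that passed, with a rise of 1.84 ± 0.14 (SE, log2). The median log2 fold change of the 5 was lower than that, at 0.74. The part of these cell types in the falls of Podn, Lum and Dcn was not tested.

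**Figure D3:**
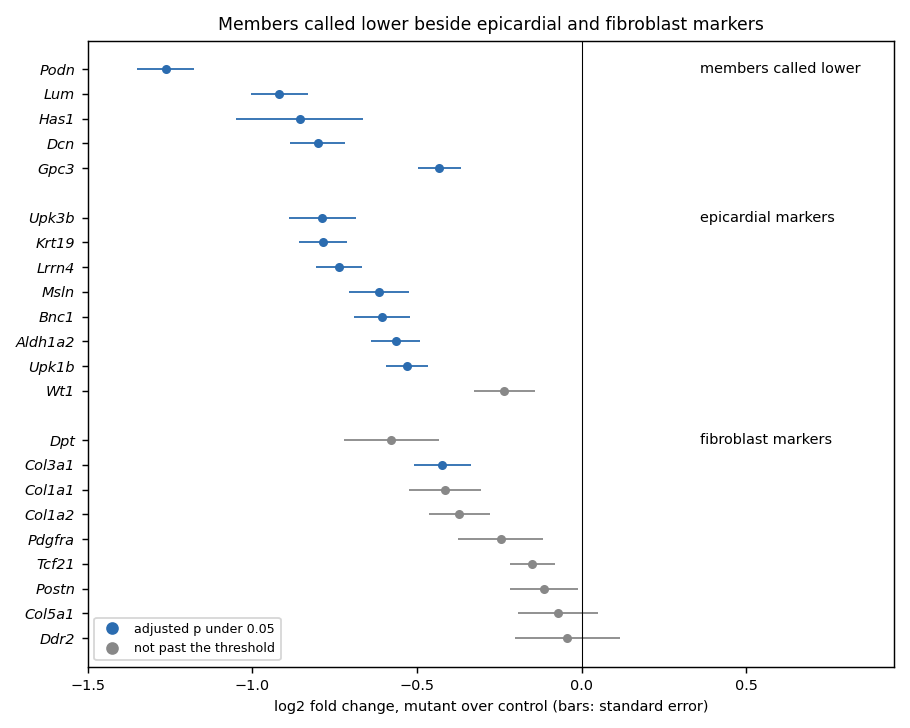
Log2 fold change with standard error of the 5 genes called lower, above 8 epicardial and 9 fibroblast markers; blue points passed adjusted p under 0.05. Of the epicardial markers 7 passed, between -0.79 and -0.53, and of the fibroblast markers only Col3a1 passed.

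Lecticans are large chondroitin sulphate proteoglycans that bind hyaluronan, and link proteins lock the 2 together. Each of the 4 lectican genes lies beside a link protein gene, with no protein-coding gene between them in the deposited table: Vcan with Hapln1, Acan with Hapln3, Bcan with Hapln2 and Ncan with Hapln4. In the last of these pairs both genes rose, and no other gene of either group passed.

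Ncan encodes neurocan, a lectican known chiefly from the brain (ENSMUSG00000002341; chromosome 8, 72620219 to 72640560). It had 2.22, 2.13 and 3.75 CPM in the control libraries, against 11.0 and 7.75 CPM in the mutant ones, from 127 to 231 counts per control library and 860 and 529 in the mutants. The groups did not overlap, and the level was low in all libraries. Ncan rose by 1.79 ± 0.28 (SE, log2), 3.47-fold (adjusted p = 0.014, edgeR). Without control 2 the change was 1.67 and the adjusted p 0.062.

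Hapln4, the link protein gene beside it, is likewise known from the brain (ENSMUSG00000007594; chromosome 8, 72607460 to 72612420). It had 0.271, 0.403 and 0.455 CPM in the control libraries, against 1.87 and 1.14 CPM in the mutant ones. These values rest on 16, 24 and 28 counts in the controls and on 146 and 78 in the mutants. Hapln4 rose by 2.00 ± 0.34 (SE, log2) (adjusted p = 0.012, edgeR). Without control 4 the change was 2.04 and the adjusted p 0.049 (edgeR), just under the threshold. Both genes were higher in mutant 5 than in mutant 7, and the ratio of Hapln4 to Ncan was 0.144 ± 0.039 (SD, n = 3) in controls and 0.159 ± 0.016 (SD, n = 2) in mutants, with p = 0.6 by an exact two-sided permutation test. The 3 nearest protein-coding genes on either side of the pair did not pass. Their log2 fold changes were 0.00 for Mau2, 0.08 for Sugp1 and 0.01 for Tm6sf2 before Hapln4, and -0.04 for Nr2c2ap, 0.35 for Rfxank (adjusted p = 0.053, edgeR) and 0.01 for 2310045N01Rik after Ncan. The 6 Schwann cell and neuron markers did not pass (edgeR), and 2 of them had an unadjusted p under 0.05, as did 3705 of all 17835 tested genes. Of these 6 markers, 5 had a negative log2 fold change and 1 a positive, with a median of -0.25. The 6 markers summed to 16.4 to 21.9 CPM in controls and 21.8 CPM in both mutants. Their part in the rise of Ncan and Hapln4 was not tested.

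Of the rising pair only Ncan had a promoter among those available, so that of Hapln4 was not examined. The RefSeq promoter of Ncan covers 250 bases before to 50 bases after the start site. It lies on the minus strand of chr8:70120795-70121094 (GRCm38.p6, a later build than the mm9 of the deposited table). Capitals mark the letters of a GC box (GGGCGG) and of a TATA box (TATAAA), each searched on both strands. The letters of the TATA box occur here only on the opposite strand, as TTTATA. Whether a marked stretch acts as such a box was not tested.
Ncan: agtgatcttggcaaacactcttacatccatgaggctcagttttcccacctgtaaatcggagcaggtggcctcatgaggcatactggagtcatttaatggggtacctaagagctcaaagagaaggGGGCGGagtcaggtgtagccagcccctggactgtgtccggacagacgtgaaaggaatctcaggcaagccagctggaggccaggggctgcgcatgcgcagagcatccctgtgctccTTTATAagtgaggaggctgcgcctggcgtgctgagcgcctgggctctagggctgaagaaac
The element known to bind factors of the Nkx2-5 class, TNAAGTG on either strand, did not occur in these 300 bases.

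Vcan encodes versican, the main lectican of the embryonic heart and of valves. It had 84.7, 126 and 85.1 CPM in the control libraries, against 75.0 and 144 CPM in the mutant ones. The groups overlapped, with control 4 and mutant 7 high and the other libraries alike. Its log2 fold change of 0.15 ± 0.38 (SE) did not pass (adjusted p = 0.88, edgeR) and was -0.40 without mutant 7. Hapln1, the link protein of the endocardial cushions, showed the same libraries on top, with 3.61, 9.33 and 3.04 CPM in the control libraries, against 3.40 and 5.10 CPM in the mutant ones. Acan, the gene of the cartilage proteoglycan aggrecan, did so too at a far lower level, with 0.941 CPM in control 4, 1.10 CPM in mutant 7 and at most 0.373 CPM elsewhere. The summed level of 8 valve and cushion markers was also highest in control 4 among the controls (694 CPM, against 637 and 539) and higher in mutant 7 (607 CPM) than in mutant 5 (525 CPM). Across the groups the order differed. Control 2 (637 CPM) lay above mutant 7 in this sum, and below it for Vcan, Hapln1 and Acan. No marker of that list was at 0 in all libraries, and its part in the values of Vcan, Hapln1 and Acan was not tested.

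Hapln3, a link protein of vessels and other tissues outside the brain, had 2.60, 2.82 and 3.09 CPM in the control libraries, against 3.61 and 4.73 CPM in the mutant ones. Both mutants were higher than all controls, and the log2 fold change of 0.56 ± 0.18 (SE) did not pass (adjusted p = 0.11, edgeR). Bcan, the gene of the brain lectican brevican, had 5 to 18 counts per library, and Hapln2 had 0 to 4.

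Hyaluronan is spun out through the membrane by 3 synthases, bound at the cell surface by CD44 and cut by hyaluronidases. Among the synthase genes Has1 fell. It had 9.99, 8.62 and 13.5 CPM in the control libraries, against 5.66 and 6.18 CPM in the mutant ones (ENSMUSG00000003665; chromosome 17, 17980588 to 17992110). Control 6 was the highest and the groups did not overlap. The change was -0.86 ± 0.19 (SE, log2) with an adjusted p of 0.039 (edgeR). Leaving out control 2, control 6, mutant 5 or mutant 7 ended the call (highest adjusted p = 0.13, at changes of -0.92 to -0.65) and with limma-voom (adjusted p = 0.060).

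Has2, the synthase needed for the cardiac jelly of the embryo, was low and did not pass. It had 1.75, 2.39 and 2.08 CPM in the control libraries, against 1.67 and 2.71 CPM in the mutant ones, with a log2 fold change of 0.08 ± 0.26 (SE). Has3 likewise ranged from 1.32 to 1.71 CPM in the control libraries, against 0.948 and 1.92 CPM in the mutant ones. Has1 thus had the most counts of the 3 synthase genes, with 8.62 to 13.5 CPM in controls.

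Cd44 had 31.9, 35.3 and 33.96 CPM in the control libraries, against 29.6 and 30.3 CPM in the mutant ones. The groups lay apart by a small distance, and the log2 fold change of -0.17 ± 0.08 (SE) did not pass (adjusted p = 0.26, edgeR). Hyal2, a hyaluronidase held at the cell surface, had 55.6, 69.6 and 58.8 CPM in the control libraries, against 61.6 and 67.9 CPM in the mutant ones, with overlap. Hyal1, the hyaluronidase of lysosomes, had a log2 fold change of -0.06 ± 0.20 (SE). It shares 1920 of its 3777 exonic bases with Naa80 on the same strand, so reads from the shared bases may not have been assigned to either gene.

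Syndecans are membrane-spanning heparan sulphate proteoglycans that act as co-receptors. Sdc3 rose and the other 3 did not pass. Sdc3, best known from neurons and muscle precursors, had 78.7, 86.3 and 78.6 CPM in the control libraries, against 110 CPM in both mutant ones (ENSMUSG00000025743; chromosome 4, 130348586 to 130378724). Its groups lay far apart relative to the spread within them. The rise was 0.44 ± 0.07 (SE, log2), 1.35-fold (adjusted p = 0.0066, edgeR). Sdc3 shares 48 exonic bases with Gm12970 and 415 with Gm26716 on the opposite strand, and Gm12970 had 1 count in all libraries together. Sdc1 and Sdc2 had log2 fold changes of -0.07 ± 0.07 and -0.06 ± 0.09 (SE), and that of Sdc4 was 0.15 ± 0.09.

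Glypicans carry heparan sulphate on a core tied to the outer membrane leaflet by a lipid anchor, and they modulate hedgehog, Wnt and BMP signals. Gpc3 fell and Gpc4 rose, although the 2 genes are neighbours on the X chromosome with 108 kb and no protein-coding gene between their coding spans. Gpc3, whose loss causes an overgrowth syndrome in humans, had 282, 269 and 268 CPM in the control libraries, against 203 and 202 CPM in the mutant ones (ENSMUSG00000055653; chromosome X, 49625962 to 49966981). It fell by 0.43 ± 0.07 (SE, log2) (adjusted p = 0.0070, edgeR). Without control 2 the change of Gpc3 was -0.41 and the adjusted p 0.044 (edgeR). Gpc4 had 68.2, 63.6 and 61.7 CPM in the control libraries, against 82.1 and 78.3 CPM in the mutant ones (ENSMUSG00000031119; chromosome X, 49406698 to 49517952). Its rise of 0.31 ± 0.07 (SE) had an adjusted p of 0.030 (edgeR), which no longer passed with any 1 control, or mutant 5, left out (highest adjusted p = 0.13, at changes of 0.28 to 0.36). The ratio of Gpc4 to Gpc3 was 0.241, 0.237 and 0.230 in the control libraries, against 0.404 and 0.388 in the mutant ones. The mean ratio was 1.68 times higher in mutants (p = 0.1 by an exact two-sided permutation test, the smallest it can give), for a pair chosen after its values were seen. Mutant values of Gpc4 lay wholly above and those of Gpc3 wholly below the controls, so their ratio had to separate the groups. The test therefore adds nothing to the values of the 2 genes.

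The promoters of both glypican genes are shown because these neighbours moved in opposite directions; both lie on the minus strand, Gpc3 at chrX:52613925-52614224 and Gpc4 at chrX:52164874-52165173 (RefSeq, GRCm38.p6). Capitals again mark the letters of GC boxes and TATA boxes on either strand.
Gpc3: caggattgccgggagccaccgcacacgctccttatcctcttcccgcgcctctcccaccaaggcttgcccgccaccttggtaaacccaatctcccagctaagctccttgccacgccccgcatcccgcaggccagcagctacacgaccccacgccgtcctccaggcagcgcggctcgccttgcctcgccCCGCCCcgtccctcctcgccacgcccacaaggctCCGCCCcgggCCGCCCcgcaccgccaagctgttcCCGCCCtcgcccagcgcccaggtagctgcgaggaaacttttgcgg
Gpc4: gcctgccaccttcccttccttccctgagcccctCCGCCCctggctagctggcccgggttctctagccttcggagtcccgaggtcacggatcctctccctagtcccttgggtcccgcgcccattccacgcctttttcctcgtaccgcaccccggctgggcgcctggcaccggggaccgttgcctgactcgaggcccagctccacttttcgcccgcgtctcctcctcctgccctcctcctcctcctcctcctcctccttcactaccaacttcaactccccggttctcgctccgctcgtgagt
Both windows were rich in G and C, at 70.7% for Gpc3 and 66.7% for Gpc4 against a median of 52.7% over all 32851 promoters of that length. The GC box occurred 4 times in the window of Gpc3 and 1 time in that of Gpc4, and in 35.7% of all promoters; neither held a TATA box, which 13.6% of all promoters held. The element TNAAGTG was in neither. Promoters were found for 28 of the 36 genes (31 windows), 2 windows held TNAAGTG (6.45%, against 11.5% of all promoters), and both belonged to Epyc. None of the 7 windows of 6 called genes held it, and no promoter was found for the called genes Dcn, Lum and Hapln4.

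Gpc1 and Gpc6 had mutant values wholly above the controls but did not pass, with log2 fold changes of 0.16 ± 0.07 and 0.35 ± 0.11 (SE). Gpc6 ranged from 34.1 to 37.4 CPM in the control libraries, against 39.6 and 51.6 CPM in the mutant ones, and its adjusted p of 0.11 (edgeR) became 0.0065 without mutant 5. Gpc2, low at 11.1 to 16.6 CPM in controls, overlapped between groups.

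The basement membrane proteoglycans Hspg2 (perlecan) and Agrn (agrin) carry heparan sulphate in the sheets under endothelium and around muscle cells. Hspg2 had 458, 623 and 514 CPM in the control libraries, against 452 CPM (mutant 5) and 1149 CPM (mutant 7). Mutant 7 was 2.54 times higher than mutant 5, while mutant 5 lay just under the lowest control. The log2 fold change of 0.59 ± 0.47 (SE) did not pass (adjusted p = 0.58, edgeR). It was -0.24 without mutant 7 and 1.11 without mutant 5 (adjusted p = 0.57 and 0.020, edgeR), so its direction rested on 1 library. Agrn showed the same order in the mutants, with 251, 283 and 295 CPM in the control libraries, against 230 and 388 CPM in the mutant ones, and its log2 fold change was -0.27 without mutant 7 and 0.49 without mutant 5.

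Mutant 7 also had higher levels of long genes than mutant 5. In the tenth of tested genes with the longest exonic sequence (at least 9439 bases), the median log2 ratio of mutant 7 to mutant 5 was 0.15, against -0.01 over all genes with a value. The log2 ratio was 1.35 for Hspg2 (14307 exonic bases), 0.94 for Vcan (14462) and 0.75 for Agrn (9285), the last of them just under that length. Shorter genes had ratios of like size, with 1.96 for Acan (7469 exonic bases), 1.04 for Bcan (4064), 1.02 for Has3 (6380), 0.73 for Omd (2249) and 0.70 for Has2 (4237), each with at most 185 counts per library. The 6 endothelial markers summed to 1213 to 1292 CPM in controls, 1378 CPM in mutant 5 and 1684 CPM in mutant 7, and 1 of them, Tie1, passed as higher. No endothelial marker was at 0 in all libraries. The 3 markers of the endocardium, the inner lining of the heart, summed to 573 to 693 CPM in controls, against 646 and 634 CPM in mutants 5 and 7. Of these 3, 1 passed as lower, and 2 had a negative and 1 a positive log2 fold change. The part of length or of endothelial RNA in the values of Hspg2, Agrn and Vcan was not tested.

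Levels of different genes can be compared only per length, so counts were also expressed per kilobase of exonic sequence (RPKM, with the union of exons in GENCODE vM21). The order below holds for these lengths and is another with the authors' lengths, as given further on. In controls Bgn (109 ± 11.0 RPKM), Dcn (102 ± 2.88) and Gpc3 (102 ± 2.98, SD, n = 3 each) came first. These 3 did not differ beyond their spread, nor did Aspn (90.0 ± 12.2) differ from Gpc3. Lum (68.2 ± 6.02) and Ogn (54.97 ± 8.57) followed. In mutants Bgn stayed first at 127 ± 1.42 RPKM (SD, n = 2), Aspn and Gpc3 came next at 75.5 ± 5.55 and 75.3 ± 0.488 RPKM, followed by Dcn in place 4 at 58.8 ± 5.72 RPKM. Lum moved from place 5 to place 8. Ncan and Hapln4 remained among the rarer genes also in mutants, at 1.30 ± 0.32 and 0.384 ± 0.131 RPKM (SD, n = 2).

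**Figure D4:**
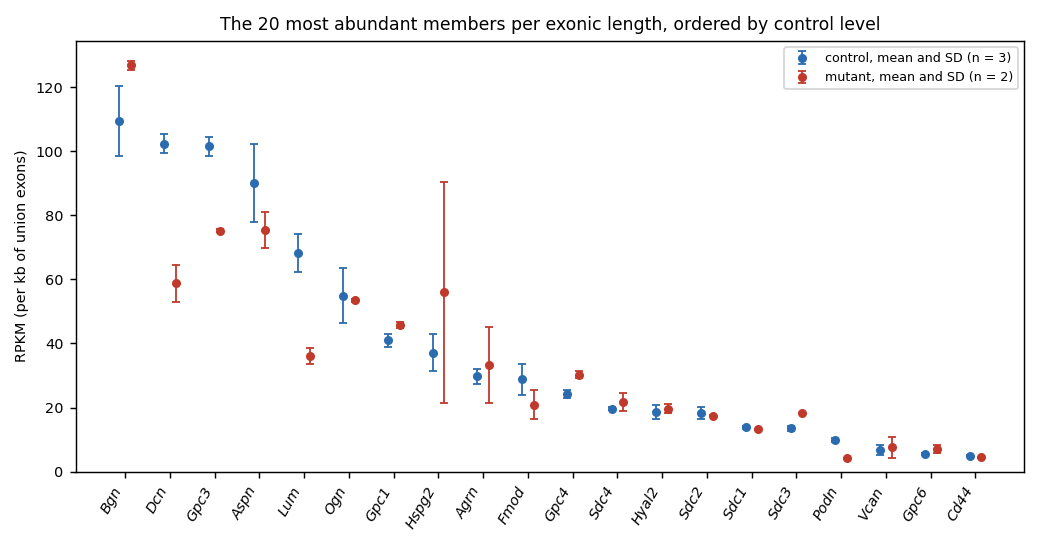
Mean level in RPKM (per kilobase of union exons) of the 20 most abundant of the 36 genes, ordered by their control level; bars are SD over 3 control and 2 mutant libraries. Dcn falls from 102 to 58.8 and Lum from 68.2 to 36.1, and the wide bar of Hspg2 reflects its 2 unlike mutant libraries.

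The authors' deposited table gives 1 RPKM value per group, and its lengths differ from these unions. It lists 27269 bases for Vcan, where the union has 14462, 15104 against 4274 for Gpc2, and 2604 against 5838 for Dcn. In the authors' deposited table Dcn therefore stands at 213 RPKM in controls and Gpc2 at 0.859 RPKM, against 102 and 3.28 RPKM with union lengths. By the authors' values Dcn came first of the 36 genes in both groups. It had 213 RPKM in controls and 121 RPKM in mutants, against 94.5 and 108 RPKM for Bgn. The order of the most abundant genes thus depends on the lengths used. Ratios between groups do not depend on the length. The authors' deposited adjusted p lay under 0.05 for 7 of the 36 genes, all of them among the 9 called here, and it was 0.24 for Has1 and 0.058 for Gpc4.

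**Figure D5:**
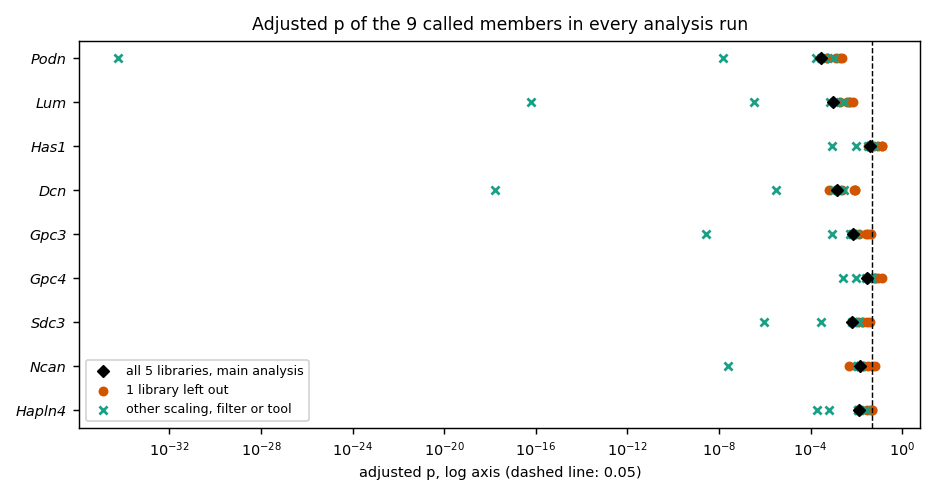
Adjusted p of the 9 genes called in the comparison of all 5 libraries (black diamonds), with 1 library left out (orange circles) and with other scalings, filters or tools (green crosses), on a log axis with the 0.05 threshold dashed. Points of Has1, Gpc4 and Ncan cross the threshold when a library is left out, and Has1 also does so with limma-voom.

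Further genes of these pathways were taken from 5 lists of 95 genes, of which 85 were tested. In all, 6 rose, 4 fell and 75 did not pass, with a median log2 fold change of 0.07. The share of 11.8% called stands beside the 6.58% of all tested genes.

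Genes of heparan sulphate synthesis and editing held 4 of the 10 calls, 3 higher and 1 lower among 21 tested. The extracellular sulphatases went in opposite directions. Sulf1, which removes 6-O-sulphate groups from finished chains, had 296, 275 and 274 CPM in the control libraries, against 182 and 205 CPM in the mutant ones, and fell by 0.54 ± 0.08 (SE; adjusted p = 0.0059, edgeR). Sulf2, its relative with the same reaction, had 118, 111 and 100 CPM in the control libraries, against 154 and 140 CPM in the mutant ones. It rose by 0.42 ± 0.08 (adjusted p = 0.019, edgeR). Leaving out control 4, control 6 or mutant 5 ended the call (highest adjusted p = 0.082). Sulf2 shares 154 exonic bases with Ncoa3 on the opposite strand. Whether the reads of these genes were told apart there is not known, because the strand setting is not stated. Hs6st2, which adds the sulphate groups that the sulphatases remove, rose by 0.63 ± 0.09 (adjusted p = 0.0058, edgeR), from 17.3 to 20.6 CPM in controls to 29.3 and 29.9 CPM in mutants. Ext1, a subunit of the enzyme that extends the chain, rose by 0.32 ± 0.06 (adjusted p = 0.017, edgeR). Leaving out any 1 control ended that call (highest adjusted p = 0.080).

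Of 21 tested genes of chain linkage and chondroitin sulphate synthesis, 2 rose and 19 did not pass (edgeR). Chst11, a chondroitin 4-O-sulphotransferase gene, had 17.4, 17.6 and 17.5 CPM in the control libraries, against 26.6 and 26.5 CPM in the mutant ones. Its values were almost alike within each group, and it rose by 0.60 ± 0.07 (SE; adjusted p = 0.0028, edgeR). Chst7, a chondroitin 6-O-sulphotransferase gene, rose by 0.56 ± 0.13 (adjusted p = 0.040, edgeR), but no longer passed when any 1 library was left out (highest adjusted p = 0.12).

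Of 21 tested genes that supply, bind or degrade hyaluronan, 1 passed with edgeR, Itih3. It encodes a heavy chain that is joined to hyaluronan, and it fell by 1.17 ± 0.23 (SE), from 4.40 to 5.66 CPM in controls to 1.72 and 2.81 CPM in mutants (adjusted p = 0.022, edgeR). Leaving out control 2 or control 4 ended the call (highest adjusted p = 0.086). Among 7 proteases that cut lecticans, Adamts8 fell by 1.14 ± 0.15 (SE), with 68.0, 70.9 and 88.3 CPM in the control libraries and 38.2 and 30.7 CPM in the mutant ones (adjusted p = 0.0075, edgeR). Of 15 tested genes of further proteoglycan core proteins, Ptprz1 rose by 1.05 ± 0.22 (adjusted p = 0.038, edgeR) and Cspg5 fell by 1.23 ± 0.29 (adjusted p = 0.041); both encode chondroitin sulphate proteoglycans known from the nervous system. Limma-voom did not call either, and leaving out any 1 control, or mutant 7, ended both calls (highest adjusted p = 0.15 for each).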

How the data were processed

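RNA of 3 control and 2 mutant atrial libraries was measured by polyA RNA sequencing. Per the labels' protocols, RNA was taken up in Trizol, purified on columns and made into libraries with a TruSeq kit. The authors deposited 1 table of genes, with an unnormalized count for each library. Beside the counts the authors deposited RPKM values pooled to 1 per group, their log2 ratio of mutant over control, and their p-values. Per the submitters' processing notes TopHat2 2.0.4, HTSeq 0.5.4p3 and DESeq were named without a role, beside build mm9. The strand setting of the counting step is not stated in those sources. Coordinates are those of the deposited table, which for 31 of the 36 genes have the length of the coding span in GENCODE vM21 (within 3 bases).

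The count table was fitted in R 4.3.3 (edgeR 4.0.16). The no_feature and ambiguous entries (3.97 to 6.03% and 2.31 to 3.18% of counts) were left out. Genes were kept by filterByExpr (minimum count 10, minimum total 15; 17835 genes), libraries were scaled by TMM, and each gene was tested with the quasi-likelihood test (robust, two-sided, prior count 0.125, no covariate), adjusted by Benjamini-Hochberg over all tested genes at 0.05. A gene is called where it passed. Standard errors come from each log2 fold change and its F statistic (size over root F). The fit was tested on simulated data. Alternatives were DESeq2's size factors or library totals in edgeR, no filter, a filter of 1 CPM reached by 2 or more libraries, limma-voom (limma 3.58.1), DESeq2 1.42.0 and leaving out each library. Exonic lengths and the exonic bases that genes share come from GENCODE vM21 (GRCm38) by gene identifier, and no coordinate of it is printed.

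The members and lists were chosen with earlier results of these data known. Every gene that was called, every gene with non-overlapping groups, an absolute log2 fold change from 0.5 up and a mean log2 CPM from 0 up, and the most abundant gene of each role is given by library; of the pathway lists, called genes are named. The genes beside Ncan were added after its value was seen. Cell type markers were used for description only.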

Additional observations from a re-analysis of the deposited data

How the results depend on the processing

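Across the 11 alternatives, 4 matrix genes were higher and 5 lower with edgeR under DESeq2's size factors or library totals. Leaving out 1 library gave 2 to 6 higher and 4 to 5 lower; it was 2 higher without control 2. For the pathway lists leaving out 1 library gave 2 to 9 higher and 2 to 4 lower, and DESeq2 gave 10 higher. Over all genes DESeq2 called 960 higher and 1044 lower, and leaving out 1 library gave 203 to 910 higher and 306 to 804 lower. Of 488 results for single genes, 434 kept direction and side of the threshold, 33 no longer passed, 6 newly passed and 15 changed sign. All 15 arose on leaving out 1 library, for genes that did not pass: Vcan ran from -0.40 to 0.54 on the log2 scale, Acan from -0.89 to 1.11, Hapln1 from -0.65 to 0.35, Hspg2 from -0.24 to 1.11, Agrn from -0.27 to 0.49, Ogn from -0.16 to 0.043, Epyc from -0.50 to 0.0096, Has2 from -0.32 to 0.39, Has3 from -0.65 to 0.37, Hyal1 from -0.24 to 0.11 and Gpc2 from -0.12 to 0.37. The cause was not tested. With 1 mutant library left out, the lone mutant is assumed to vary like the controls. No paired analysis was possible because controls and mutants share no replicate number. Counts of 0 to 32 per library limit what can be said of Kera, Hapln2, Bcan and Epyc.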
